A study of Mus musculus with 24 samples.

Results

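A set of 9 genes of fibroblast growth factor (FGF) and hepatocyte growth factor (HGF) signalling were examined in peak lists from 3 types of mouse fibroblasts: the ligands Fgf2, Fgf7, Fgf10, Fgf18 and Hgf and the receptors Fgfr1, Fgfr2, Fgfr3 and Met. They were taken by name, out of the 22380 protein-coding genes of the annotation, by a rule that uses no measured value. Earlier results of these data were known when they were chosen. Each gene was read over its body with 10 kb on each side, called its window here, and all positions are those of build mm9. The windows spanned 35344 bp (Fgfr3) to 142325 bp (Fgf10). A longer window can hold more summits, and no count or share of genes below was adjusted for window length. FGFs and HGF are secreted proteins through which stromal cells act on neighbouring epithelium and on themselves. Fgf7, Fgf10 and Hgf are typical products of mesenchyme whose receptors, a splice form of Fgfr2 for the FGFs and Met for Hgf, are best known from epithelial cells. Fgf2 and Fgf18 signal through several FGF receptors, and Fgfr1 is a receptor that fibroblasts themselves commonly use.

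Chromatin immunoprecipitation followed by sequencing (ChIP-seq) had been performed for 2 histone marks and for the homeodomain transcription factor Prrx1. Trimethylation of histone H3 at lysine 4 (H3K4me3) marks promoters of active or poised genes, and acetylation at lysine 27 (H3K27ac) marks active promoters and enhancers. There were 7 H3K4me3 lists, 7 H3K27ac lists and 3 Prrx1 lists, 17 in all, with 1 list in each group, so all differences describe single lists, no replicate error could be computed and no p-value is given. Mouse embryonic fibroblasts (MEF) came from embryos of E10 to E13, MMTV-CAFs from mammary tumours of MMTV-PyMT mice, in which a viral promoter drives a viral oncogene, and wound-healing fibroblasts from dorsal wounds at day 10. WT denotes normal Prrx1, and SG denotes Prrx1 deletion with a guide RNA and Cas9. The study names cells with a non-targeting guide (SgNS) as WT for MMTV-CAFs and wound-healing fibroblasts. KI denotes a mutant MEF genotype, which the labels do not spell out and which was read here as the 129S-Prrx1tm1Jfm mutant embryos of the labels, in which the study describes a lacZ insertion into the homeodomain. The cells of every group carried papillomavirus E6 and E7 for immortalisation. MMTV-CAFs were of strain FVB/NJ and the other cells were labelled C57BL/6, so that type and strain cannot be told apart for MMTV-CAFs. The label of the mutant embryos also names 129S, and the study describes their line as backcrossed to C57BL6. Any remaining difference of strain cannot be told apart from genotype in KI. Whether a culture was a clone or a pool was not given in the sources used here.

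The lists differed in strength. H3K27ac lists held 29325 (MEF KI) to 61603 summits (MMTV-CAF SG), and the median −log10 p was 11.9 in MEF KI against 15.2 to 21.2 in the other lists. H3K4me3 lists held 13125 to 29166 regions and Prrx1 lists 3048 to 8000 summits. The Prrx1 gene itself kept an H3K4me3 region of 4558 to 15484 bp at a transcription start site (TSS) and 12 to 27 H3K27ac summits in all 7 lists, so these marks do not check the deletion. Of the 8 fibroblast markers, Pdgfra, Pdgfrb, Col1a1, Col1a2 and Vim had H3K4me3 at a TSS in all 7 lists, Col3a1 lacked it in both wound-healing lists, S100a4 in MEF KI, and Thy1 in MEF KI, both MMTV-CAF lists and wound-healing SG, and all 8 had H3K27ac summits in every list. Of the 6 epithelial markers, Epcam and Krt5 had neither histone mark in any list, and Krt8, without H3K4me3, had up to 8 H3K27ac summits, the most in SG MMTV-CAFs. Cdh1 had H3K4me3 in 4 lists (WT and SG MEF and both wound-healing lists) and 1 to 4 H3K27ac summits in every list but MEF KI. Krt14 had 4 summits in SG MEF and 1 in each of WT MEF and both MMTV-CAF lists, and Krt18 had 1 in wound-healing SG. Of the 3 immune markers, Ptprc had neither mark, whereas Cd68 had 3 to 8 H3K27ac summits in every list and Csf1r 5 and 6 in WT and SG MMTV-CAFs, 2 in SG MEF and 1 in SG wound-healing fibroblasts, both without H3K4me3. Of the 3 endothelial markers, Kdr had H3K4me3 in 6 lists and H3K27ac in both wound-healing lists only (7 and 9 summits), Pecam1 had 1 to 7 H3K27ac summits in every list and Cdh5 up to 6, both without H3K4me3. The part of other cells in the values below was not tested.

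At the promoters, Fgf7 had a broad region in all 7 lists, Fgf10 was broad in most lists, and Hgf was marked at its TSS in 3 lists only. A region over a TSS was present at 8 of the 9 genes in MEF WT, 7 in KI, 8 in SG, 9 and 8 in WT and SG MMTV-CAFs, and 8 in each wound-healing list. Of all protein-coding genes, 53.1%, 41.4%, 51.3%, 52.4%, 52.9%, 54.7% and 55.2% had one in the same order of lists. Regions over 4 kb, which the study calls broad, lay at 2, 1, 2, 5, 5, 2 and 2 of the 9 genes, against 5.01%, 1.48%, 3.59%, 15.1%, 12.8%, 4.83% and 8.57% of all genes. With the widest 5% of each list in place of regions over 4 kb, the counts were 2, 2, 2, 1, 4, 2 and 1, so that the higher count of MMTV-CAF WT was lost.

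**Figure D1:**
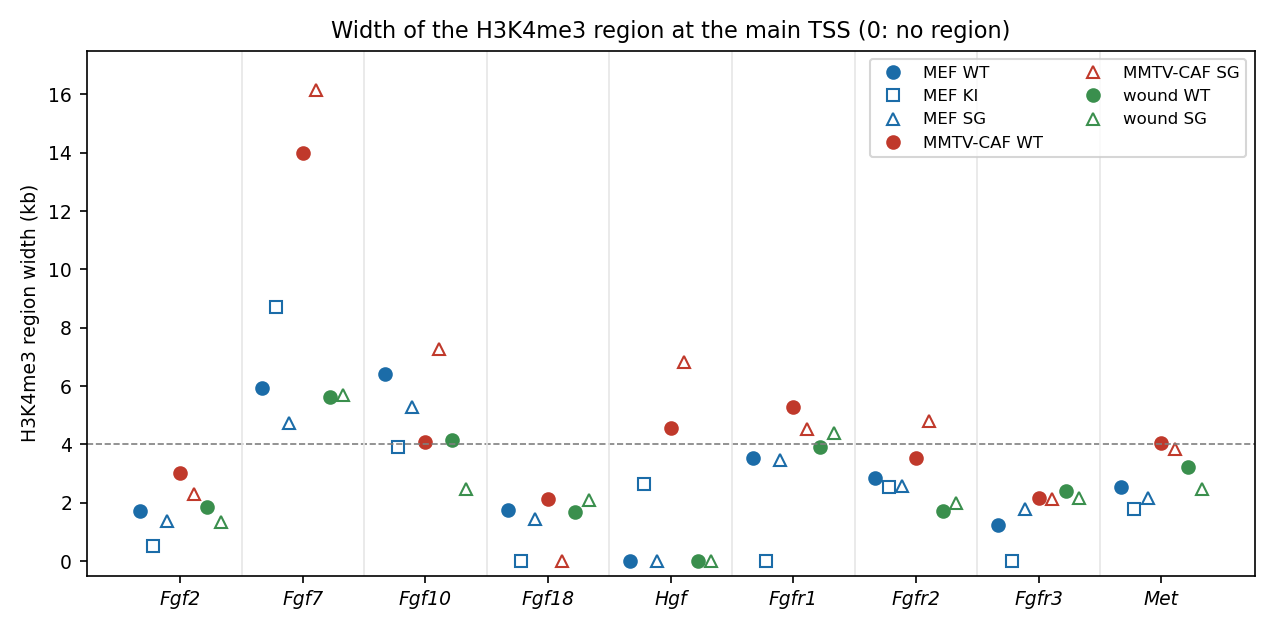
The y axis gives the width in kb of the H3K4me3 region over the TSS of the main transcript of each gene (x axis), with 1 point for each of the 7 lists, and 0 marks genes without a region there. The dashed line is at 4 kb. Fgf7 lies above the line in every list, and Hgf is above 0 in MEF KI and both MMTV-CAF lists only.

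Over all lists, Met and Fgf7 had the most H3K27ac summits of the 9 genes, and MMTV-CAFs held more summits than the other types. Together the 9 windows held 61, 41 and 49 summits in WT, KI and SG MEF, 115 and 127 in WT and SG MMTV-CAFs, and 43 and 55 in WT and SG wound-healing fibroblasts. The MMTV-CAF lists were also the longest, and with all lists kept to the size of the smallest the counts were 40, 41 and 29, 61 and 55, and 37 and 29, so that the order of WT and SG turned in MMTV-CAFs and wound-healing fibroblasts. At least 1 summit was found at 6, 7, 8, 9, 9, 6 and 9 of the 9 genes, and at 61.5%, 52.3%, 62.9%, 61.9%, 64.2%, 58.2% and 62.9% of all protein-coding genes in the same lists. Fgf18 and Fgfr3 had at most 2 summits in any list.

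**Figure D2:**
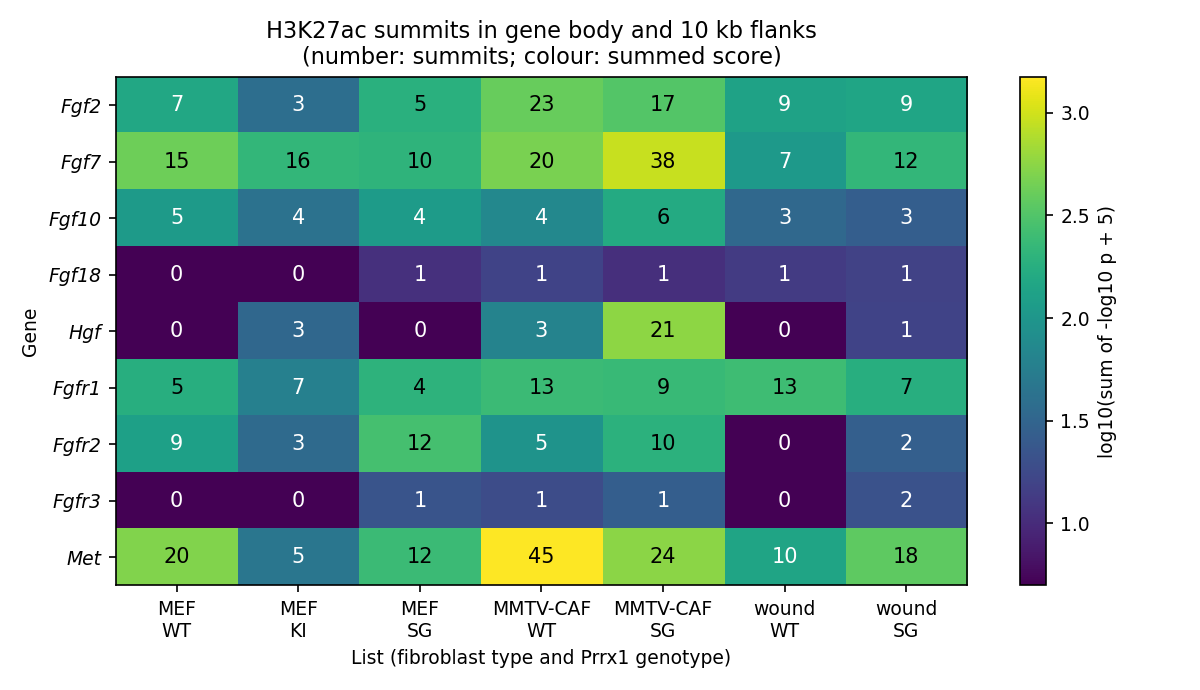
Each cell gives the number of H3K27ac summits in the window of a gene (rows) in a list (columns), and its colour gives log10 of the summed −log10 p plus 5. Met in MMTV-CAF WT has the most summits, 45, and the cells of Fgf18 and Fgfr3 hold 0 to 2.

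To compare lists of different strength, the −log10 p of the H3K27ac summits in a window were summed, 5 was added, and the log2 ratio of the deleted over the WT list was taken less the median ratio of all genes with a summit in either list. That median was −1.62 and 0.48 for KI and SG MEF, 0.25 for SG MMTV-CAFs and 0.59 for SG wound-healing fibroblasts. A gene was called higher or lower where this relative log2 change reached 1 in either direction, which is a rule of size and not a test. Both MEF comparisons share the WT list. Where the WT list held no summit, the sums are given and no ratio.

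In MEF KI, 1 of the 7 genes with a summit was called higher (Hgf, from 0) and 1 lower (Met), and 11.2% and 14% of all 14043 genes compared were called so. In MEF SG, 1 of 8 was higher (Fgfr3, from 0) and 2 lower (Fgf7 and Met), against 6.58% and 6.36% of 14403 genes. In MMTV-CAF SG, 1 of 9 was higher (Hgf) and 1 lower (Met), against 11% and 6.46% of 14763 genes. In wound-healing SG, 3 of 9 were higher, all from a WT list at 0 (Hgf, Fgfr2 and Fgfr3), and 1 lower (Fgfr1), against 10.1% and 4.55% of 14239 genes. These small counts moved with the settings. The wound-healing count of higher genes was 1 without flanks, 0 at equal list sizes or with 50 added to each sum and 5 before subtraction, and its lower count was 0 with 50 kb flanks, before subtraction or with 50 added, 2 with scores of at least 10 and 3 at equal sizes. The other counts that moved by more than 1.5 times were lower in KI (2 with scores of at least 10, 5 before subtraction), higher in MEF SG (0 with 50 added, 2 or 3 under 3 other settings), and in MMTV-CAF SG higher (2 at equal sizes, 3 before subtraction) and lower (2 with scores of at least 10). Over the 6, 6, 9 and 6 genes with summits in both lists, the median relative log2 change was −0.09, −0.37, 0.29 and −0.44 in the 4 comparisons, and with the genes at 0 in WT included it was 0.04, −0.26, 0.29 and 0.41, so that its sign turned in MEF KI and in SG wound-healing fibroblasts. Met was called lower in 3 of the 4 comparisons and Hgf higher in 3, of which 2 started from a list at 0. The wound-healing call of Hgf rests on 1 summit of −log10 p 10.6, 73353 bp downstream of the TSS and past the end of the gene.

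**Figure D3:**
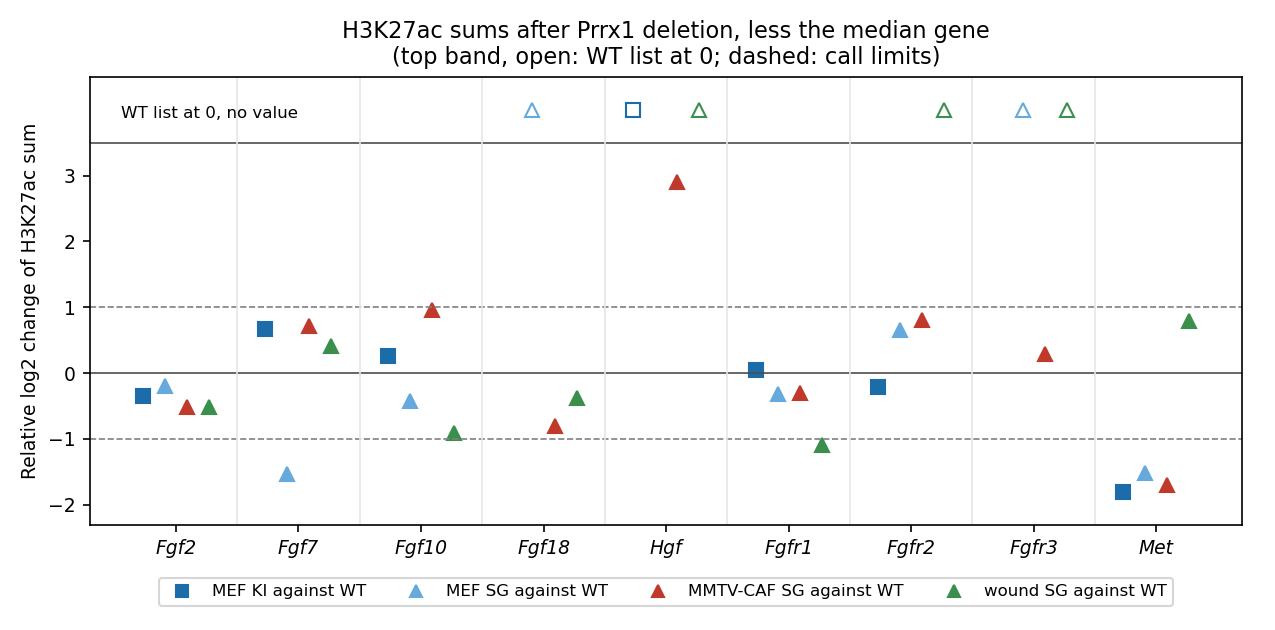
Relative log2 change of the H3K27ac sum after Prrx1 deletion (y axis) for each gene (x axis), with 1 point for each of the 4 comparisons. Dashed lines mark the call limits of 1 and −1, and open points in the top band are genes whose WT list was at 0, for which no value is drawn. Met lies below −1 in 3 comparisons and above 0 in wound-healing fibroblasts.

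Between WT fibroblasts, the same measure was 1.06 for Fgf2 and 1.26 for Met in MMTV-CAFs over MEF, and Fgf18, Hgf and Fgfr3 were called higher from a MEF list at 0. The Fgf2 call was lost under 5 of 8 alternatives, at 0.68 (50 kb flanks) to 0.95 (50 added to each sum). In all, 5 of 9 genes were higher and 0 lower, against 10.1% and 10.4% of all 14497 genes compared, with a median of all genes of 0.30 before it was subtracted. The higher count was 2 with 50 kb flanks or equal list sizes and 1 with 50 added, and 1 gene was lower at equal sizes. In wound-healing fibroblasts over MEF, 2 of 7 were higher (Fgfr1, 1.06, and Fgf18, from 0) and 4 lower (Fgf7, −1.41, Fgf10, −1.14, Met, −1.31, and Fgfr2, from 9 summits to 0), against 5.96% and 12.4% of 14052 genes, with a median of −0.54. The Fgfr1 call was lost with 50 kb flanks (0.61), before subtraction (0.52) and with 50 added (0.73), and the Fgf10 call with sums divided by the list total (−0.90) and with 50 added (−0.66). In MMTV-CAFs over wound-healing fibroblasts, 5 of 9 were higher (Fgf7, 1.25, Met, 2.56, and Hgf, Fgfr2 and Fgfr3, from 0) and 0 lower, against 11.8% and 7.29% of 14222 genes, with a median of 0.86. The higher count was 0 to 1 under 4 settings in wound-healing fibroblasts over MEF, and in MMTV-CAFs over wound-healing fibroblasts it was 2 with 50 added, while 1 or 2 genes were lower under 3 settings. These 3 comparisons share their lists in pairs.

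Prrx1 summits in WT cells lay in the windows of 4 of the 9 genes in MEF, 6 in MMTV-CAFs and 5 in wound-healing fibroblasts, against 7.02%, 22.1% and 16.7% of all protein-coding genes. Neither side was adjusted for window length. The Prrx1 summits numbered 7, 26 and 9, and 7, 10 and 8 without Met. Fgf2 and Fgf7 had Prrx1 summits in all 3 types, and Fgf10 and Fgfr3 had 0 in each. The Prrx1 lists reached below the −log10 p of 5 that the study states for its peaks, and 1, 6 and 2 of these summits were below 5. An H3K27ac summit of the same WT cells lay within 500 bp of 3, 11 and 2 of them, and an H3K4me3 region covered 1, 17 and 3. Of all Prrx1 summits of the lists, 20.5%, 45.4% and 33.2% had an H3K27ac summit this near, and 7.02%, 44.7% and 28.2% lay in an H3K4me3 region. Of the 17 in MMTV-CAFs, 11 lay at Met, where most H3K4me3 regions had a low fold over input.

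The sequence TAATTA, a palindrome bound by many homeodomain proteins, was sought within 100 bp of each summit. It was found at 4 of the 7 summits in MEF, 7 of the 26 in MMTV-CAFs and 1 of the 9 in wound-healing fibroblasts. Of all Prrx1 summits of the lists, 69.1%, 35.5% and 41.9% held it, and of positions 2 kb to either side 6.91%, 5.85% and 6.16%. Below, stretches of mm9 around the Prrx1 summits that lay within 500 bp of each other in at least 2 types are printed with each gene, 5′ to 3′ on the strand of the gene, with every base of a TAATTA in capitals. A stretch reaches 100 bp to each side of the summit, and is shorter where it would hold exon sequence. A match says only that these letters are present.

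Fgf7 encodes keratinocyte growth factor, a mesenchymal mitogen of epithelial cells. It lies on the plus strand of chromosome 2 from 125860394 to 125916921 (ENSMUSG00000027208.8), and the gene 4930525F21Rik overlaps it. Its H3K4me3 region was 5930, 8727 and 4740 bp wide in WT, KI and SG MEF, at folds over input of 7.76, 7.74 and 4.36. In MMTV-CAFs the width was 13982 bp in WT and 16156 bp in SG, at folds of 7.44 and 7.95. In wound-healing fibroblasts it was 5614 bp in WT and 5707 bp in SG, at folds of 5.01 and 5.29. The region was broad in all 7 lists and widest in both MMTV-CAF lists, where it ran 12302 and 14335 bp downstream of the TSS. In MEF KI only 3 of 7620 genes with a region at their main TSS had a wider one, in MMTV-CAF SG 13 of 11204 and in MMTV-CAF WT 35 of 11067, whereas in the other lists 183 to 518 did.

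The Fgf7 window held 15, 16 and 10 H3K27ac summits in WT, KI and SG MEF, with sums of 419, 215 and 199.7. WT and SG MMTV-CAFs held 20 and 38 summits with sums of 468 and 919.6, and WT and SG wound-healing fibroblasts held 7 and 12 with sums of 105 and 215. Relative to all genes, the log2 change was 0.67 in KI, where the log2 ratio before subtraction was −0.94, −1.53 in MEF SG, 0.71 in SG MMTV-CAFs and 0.41 in SG wound-healing fibroblasts. Only the MEF SG value passed the limit. Before subtraction the wound-healing value also just reached it, the MEF SG value was −1.05, and both MEF values were then below 0, as they were with 50 added to each sum (−0.05 in KI and −1.21 in SG). In MMTV-CAF SG, 24 of the 38 summits lay more than 500 bp from any WT summit, where 43.6% of all summits of that list did so, and 16 of the 20 WT summits were kept. Stitched across gaps and ranked by summed −log10 p, the Fgf7 cluster was a super-enhancer in 5 lists, at rank 75 in MEF WT, 55 in KI, 175 and 34 in WT and SG MMTV-CAFs and 519 in wound-healing SG. One intronic site 4302 bp downstream of the TSS carried H3K27ac in all 7 lists.

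Prrx1 had 4 summits at Fgf7 in each type, and 15, 130 and 55 of all 22380 genes had more in MEF, MMTV-CAFs and wound-healing fibroblasts. Their best −log10 p was 10.5 in MEF, 11.9 in MMTV-CAFs and 6.28 in wound-healing fibroblasts, in each case at the TSS, at 34, −44 and 62 bp from it. This promoter summit was shared by all 3 types and lay inside the H3K4me3 region, with no H3K27ac summit of the same WT cells within 500 bp. In SG wound-healing fibroblasts an H3K27ac summit lay 191 bp downstream of the TSS, within 500 bp of the Prrx1 summits of all 3 types. A second site, 28467 bp downstream in an intron, was shared by MEF (−log10 p 6.83) and wound-healing fibroblasts (4.35). Another at 30941 bp was shared by MEF (7.83) and MMTV-CAFs (3.57). In both pairs the summit outside MEF was below the value of 5 that the study states. Of the other Fgf7 summits, 4.70 in MEF and 3.64 in wound-healing fibroblasts were also below 5. The second site held 2 overlapping copies of TAATTA, 17 bp from the MEF summit, and the other printed stretches held 0. The promoter stretch is cut to 30 bases around the MMTV-CAF summit.
Fgf7 promoter, chr2:125860335-125860364: ttgcttccaatgaggtcagcaaaggtattt
Fgf7 second site, chr2:125888761-125888961: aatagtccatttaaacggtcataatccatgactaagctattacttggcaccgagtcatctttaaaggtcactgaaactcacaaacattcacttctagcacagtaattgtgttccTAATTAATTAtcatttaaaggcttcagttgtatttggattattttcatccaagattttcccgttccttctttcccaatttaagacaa
Fgf7 other intronic site, chr2:125891235-125891435: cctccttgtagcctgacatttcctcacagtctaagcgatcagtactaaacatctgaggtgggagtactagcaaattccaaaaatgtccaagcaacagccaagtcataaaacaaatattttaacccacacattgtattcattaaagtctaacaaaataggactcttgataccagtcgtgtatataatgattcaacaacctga

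Hgf encodes hepatocyte growth factor, the ligand of Met, which drives scattering and growth of epithelial cells. It lies on the plus strand of chromosome 5 from 16059368 to 16125257 (ENSMUSG00000028864.3), with no other protein-coding gene in its window. H3K4me3 covered its TSS in MEF KI (2639 bp, fold 4.75), in MMTV-CAF WT (4566 bp, fold 5.51) and in MMTV-CAF SG (6821 bp, fold 8.74). In MEF WT a region of 900 bp started 326 bp downstream of the TSS, in wound-healing SG one of 667 bp started 671 bp downstream, and MEF SG and wound-healing WT held no region in the window. A region over the TSS itself was therefore listed in both MMTV-CAF lists and in the MEF list with the lowest scores, and not in the other 4. This depends on the rule of overlap, since the regions just downstream in MEF WT and wound-healing SG had folds of 3.05 and 3.19.

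H3K27ac at Hgf was listed at 0 in MEF WT, MEF SG and wound-healing WT. MEF KI held 3 summits with a sum of 28.3, wound-healing SG 1 summit with a sum of 10.6, MMTV-CAF WT 3 summits with a sum of 58.8 and MMTV-CAF SG 21 summits with a sum of 561. MMTV-CAF SG thus stood above all other lists, with a relative log2 change of 2.90 over its WT list. Of its 21 summits, 20 lay more than 500 bp from any WT summit, against 43.6% of all MMTV-CAF SG summits. The SG summits were found at the promoter, where the strongest of −log10 p 108 lay 457 bp downstream of the TSS, in introns, and 70332 to 75533 bp downstream of the TSS, past the end of the gene. The 3 WT summits lay at −103, 1325 and 3026 bp from the TSS, so that H3K27ac was listed near the promoter in WT too. The Hgf cluster ranked 8056 in MMTV-CAF WT and 382 in SG, where it held 18 summits and was called a super-enhancer.

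Prrx1 had 1 summit at Hgf in MEF (−log10 p 5.36) and 1 in MMTV-CAFs (7.55), at the same intronic site 22504 and 22588 bp downstream of the TSS, and 0 in wound-healing fibroblasts. No H3K27ac summit of the WT cells lay within 500 bp of it. It is the only Prrx1 site in the Hgf window, and 1 TAATTA lay 87 bp from the MMTV-CAF summit.
Hgf intron, chr5:16081856-16082056: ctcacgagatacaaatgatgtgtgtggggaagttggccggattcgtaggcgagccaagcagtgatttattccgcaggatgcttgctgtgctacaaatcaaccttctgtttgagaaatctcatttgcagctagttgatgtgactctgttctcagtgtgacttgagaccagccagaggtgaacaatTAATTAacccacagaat

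**Figure D4:**
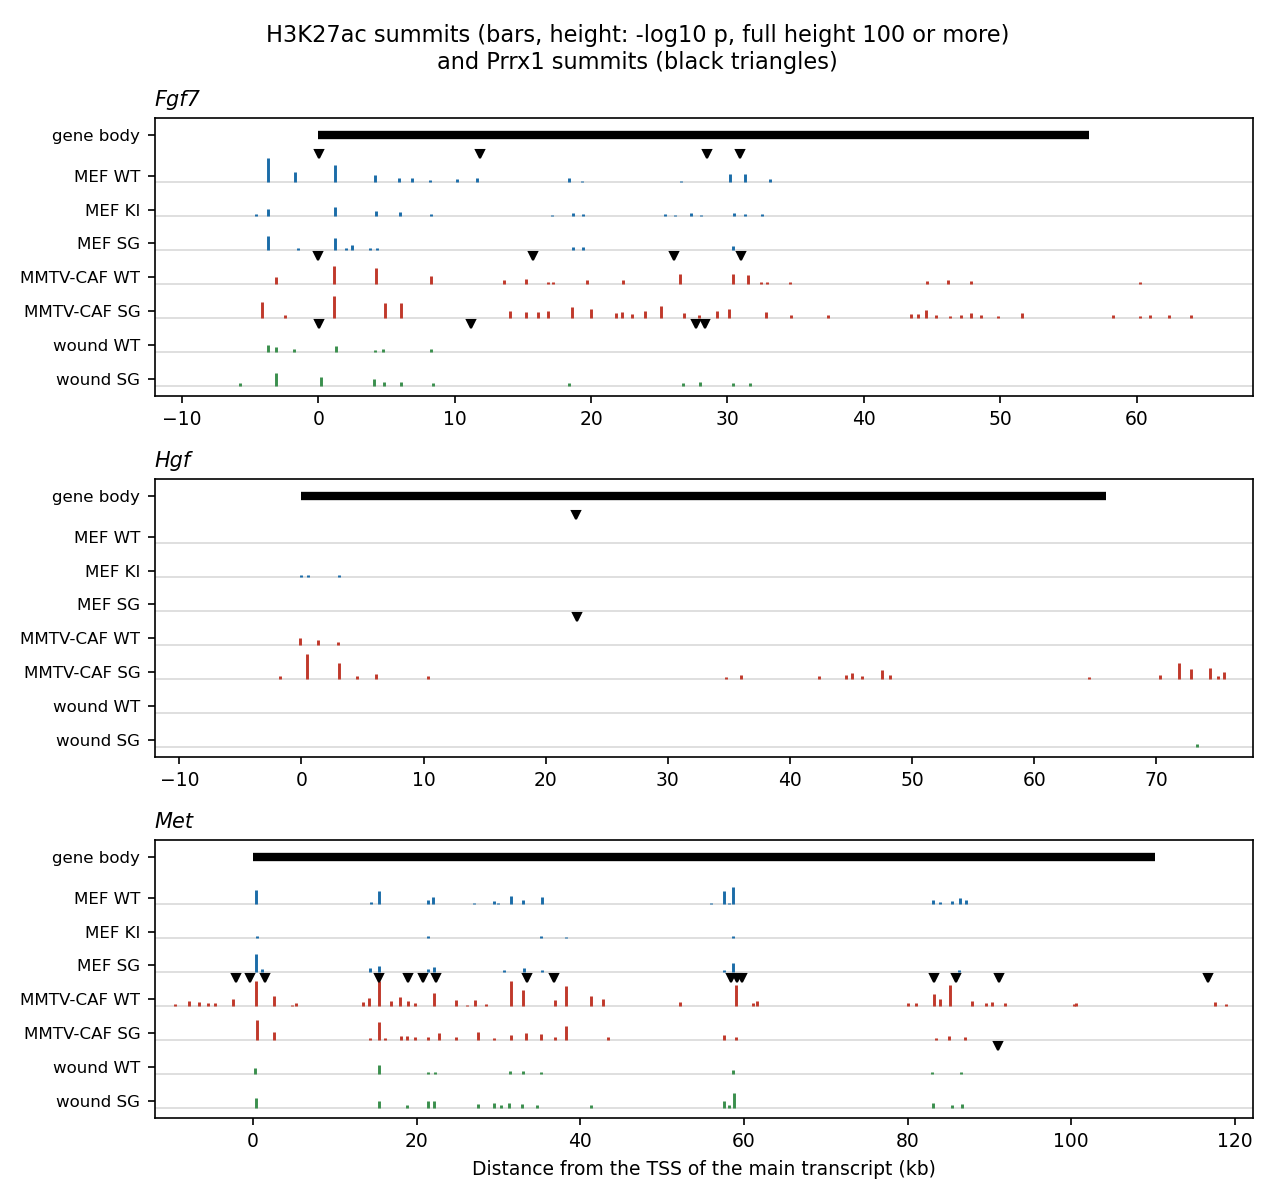
Bars are H3K27ac summits and black triangles Prrx1 summits at Fgf7, Hgf and Met, by distance in kb from the TSS of the main transcript (x axis), with 1 row for each list. Bar height is −log10 p, drawn to full height at 100 or more, triangles stand above the row of the WT list of their type, and the black line is the gene body. The row of MMTV-CAF SG has 21 bars at Hgf, against 3 in WT, and at Met the row of MMTV-CAF WT has 45 bars and 16 triangles.

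Fgf2 encodes basic FGF, a mitogen of fibroblasts and endothelial cells. It lies on the plus strand of chromosome 3 from 37211441 to 37304299 (ENSMUSG00000037225.6), shares its window with Bbs12, Cetn4 and Nudt6, and has an upstream annotated TSS whose H3K4me3 region also covered the TSSs of Bbs12 and Cetn4. At the TSS of its main transcript the region spanned 1716, 522 and 1383 bp in WT, KI and SG MEF, 3011 and 2285 bp in WT and SG MMTV-CAFs, and 1863 and 1344 bp in WT and SG wound-healing fibroblasts. At this TSS the deleted list of each type had the narrower region, and none was broad. The folds there were 5.49, 2.64 and 5.02 in WT, KI and SG MEF. Folds were 9.47 and 12.4 in WT and SG MMTV-CAFs and 6.99 and 10.5 in WT and SG wound-healing fibroblasts, higher in the deleted lists. Over any TSS the widest region was 2380, 2005 and 1965 bp in WT, KI and SG MEF. It was 3572 bp in both MMTV-CAF lists, and 2119 and 3106 bp in WT and SG wound-healing fibroblasts. H3K27ac summits numbered 7, 3 and 5 in WT, KI and SG MEF, 23 and 17 in WT and SG MMTV-CAFs and 9 in each wound-healing list, with sums of 148, 34.1, 181, 389, 322, 129.7 and 137. The relative log2 change after deletion was −0.35, −0.19, −0.52 and −0.51 in KI and SG MEF, SG MMTV-CAFs and SG wound-healing fibroblasts, and called in none. Before the median was subtracted it was −1.97, past the limit, in KI MEF, 0.29 in SG MEF, −0.27 in SG MMTV-CAFs and 0.08 in SG wound-healing fibroblasts, and with scores of at least 10 the KI value was 0.06. The strongest summit of every list lay between −36125 and −35452 bp from the main TSS, at the promoter shared with the neighbouring genes.

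One intronic Prrx1 site of Fgf2 was shared by all 3 types. It lay 53879 bp downstream of the main TSS in MEF (−log10 p 5.85), 53850 bp in MMTV-CAFs (19.9) and 53880 bp in wound-healing fibroblasts (7.56), with an H3K27ac summit of the same cells within 500 bp in each. MMTV-CAFs had 2 further Prrx1 summits, at 12653 and 22079 bp. The shared site is shown because it was the only site besides the Fgf7 promoter found in every type, and no TAATTA lay in the stretch.
Fgf2 intron, chr3:37301018-37301218: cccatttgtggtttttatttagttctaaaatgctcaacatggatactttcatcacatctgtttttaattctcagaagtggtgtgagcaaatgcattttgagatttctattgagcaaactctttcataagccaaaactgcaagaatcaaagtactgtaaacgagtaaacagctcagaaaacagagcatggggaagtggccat

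Fgf10, which mesenchyme uses to drive budding of the lung, limb and gland epithelium, lies on the plus strand of chromosome 13 from 119458598 to 119580922 (ENSMUSG00000021732.8). Its H3K4me3 region spanned 6421, 3924 and 5296 bp in WT, KI and SG MEF, 4080 and 7259 bp in WT and SG MMTV-CAFs, and 4160 and 2479 bp in WT and SG wound-healing fibroblasts. It was broad in 5 of the 7 lists, was narrower in the deleted lists of MEF and wound-healing fibroblasts, and was wider in the deleted list of MMTV-CAFs. H3K27ac did not share this breadth, with 3 to 6 summits in each list and sums of 106, 38.0, 110.1, 65.8, 159, 29.5 and 22.7. The relative log2 change after deletion was 0.25, −0.42, 0.96 and −0.91 in KI and SG MEF, SG MMTV-CAFs and SG wound-healing fibroblasts, and none was called. Before subtraction it was −1.36 in KI and 1.21 in SG MMTV-CAFs, both past the limit, and 0.06 in SG MEF. With scores of at least 10 the KI value was −0.82, and with 50 added to each sum −0.05. No Prrx1 summit lay in its window in any type.

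Fgf18, an FGF of skeletal and lung mesenchyme, is encoded on the minus strand (chromosome 11, 33017430 to 33047400, ENSMUSG00000057967.6), next to Npm1. Over its TSS, H3K4me3 covered 1752 and 1437 bp in WT and SG MEF, 2137 bp in MMTV-CAF WT, and 1681 and 2101 bp in WT and SG wound-healing fibroblasts. MEF KI held no region, and in MMTV-CAF SG a region of 977 bp lay between −1116 and −140 bp from the TSS. The folds of the regions over the TSS were 2.61 to 4.59. H3K27ac was listed at 0 in MEF WT and KI and had 1 summit in each other list, of −log10 p 5.76 to 10.7. The only Prrx1 summit, in wound-healing fibroblasts (5.39), lay at −6882 bp from the TSS, within the body of Npm1.

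Among the receptors, Met had the highest H3K27ac sum in MEF WT, both MMTV-CAF lists and wound-healing SG, Fgfr1 in MEF KI and wound-healing WT, and Fgfr2 in MEF SG. Met, the HGF receptor tyrosine kinase, lies on the plus strand of chromosome 6 from 17413800 to 17523980 (ENSMUSG00000009376.8), with no other protein-coding gene in its window. H3K4me3 at its TSS spanned 2557, 1781 and 2170 bp in WT, KI and SG MEF, 4065 and 3845 bp in WT and SG MMTV-CAFs, and 3226 and 2478 bp in WT and SG wound-healing fibroblasts. As at the main TSS of Fgf2, the deleted list had the narrower region in every type. The folds of these Met regions were 6.74, 3.11 and 5.88 in WT, KI and SG MEF. In the other types the deleted list had the higher fold, 13.2 against 7.74 in MMTV-CAFs and 10.1 against 7.74 in wound-healing fibroblasts. The median width over all genes with a region was 2252, 1927 and 2106 bp in WT, KI and SG MEF and 3039 and 2857.5 bp in WT and SG MMTV-CAFs, also narrower in the deleted lists, but 2082.5 and 2368 bp in WT and SG wound-healing fibroblasts.

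The Met window held 20, 5 and 12 H3K27ac summits in WT, KI and SG MEF, with sums of 499, 42.1 and 239.6. WT and SG MMTV-CAFs held 45 and 24 with sums of 1489 and 545, and WT and SG wound-healing fibroblasts held 10 and 18 with sums of 135 and 358. The relative log2 change was −1.80 and −1.52 in KI and SG MEF and −1.69 in SG MMTV-CAFs, all called lower, and 0.79 in SG wound-healing fibroblasts, which was not called but passed the limit with scores of at least 10 (1.25) and before subtraction (1.38). Wound-healing fibroblasts thus went the other way, and their WT list held the lowest WT sum of the 3 types. Of the WT summits, 4 of 20 were matched within 500 bp in KI MEF, 10 of 20 in SG MEF, 17 of 45 in SG MMTV-CAFs and 9 of 10 in SG wound-healing fibroblasts. In MMTV-CAF WT the Met cluster ranked 8 of 18506 and spanned 74.3 kb with 33 summits, and in SG it ranked 254. Sites 379 bp and 58877 bp downstream of the TSS carried H3K27ac in all 7 lists.

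Prrx1 had 16 summits at Met in MMTV-CAFs, 1 in wound-healing fibroblasts and 0 in MEF. The strongest in MMTV-CAFs (−log10 p 25.0) lay 91125 bp downstream in an intron and was shared with the wound-healing summit at 91102 bp (5.39), where 1 TAATTA lay 1 bp from the wound-healing summit. The MMTV-CAF lists stood out at this locus in other ways. The Met window held 20 H3K4me3 regions in MMTV-CAF WT, of which 18 covered no TSS and 13 had a fold under 2, against 116 of 27339 regions (0.424%) in the whole list. In MMTV-CAF SG it held 9 regions, 0 of them under 2, and in the other lists 1 to 4. Only Yap1, Gm20388 and Creb3l2 had more Prrx1 summits than Met in MMTV-CAFs, with 29, 28 and 17 (Gm20388 also had 64 in wound-healing fibroblasts), and within 500 kb of Yap1, Creb3l2 and Met lay 29, 18 and 16 of the 116 regions of low fold, and 0 within 500 kb of Gm20388. The part of this feature in the H3K27ac, cluster and Prrx1 values of Met in MMTV-CAFs was not tested. The input signal, which a gain of DNA copies would raise, was not examined because the inputs were not used here.
Met intron, chr6:17504825-17505025: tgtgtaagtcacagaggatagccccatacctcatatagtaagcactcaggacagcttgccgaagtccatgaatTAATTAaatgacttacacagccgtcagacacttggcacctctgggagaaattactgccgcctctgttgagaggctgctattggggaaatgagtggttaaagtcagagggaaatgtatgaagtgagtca

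Fgfr1 lies on the plus strand of chromosome 8 from 26624126 to 26686186 (ENSMUSG00000031565.10), beside Letm2. Its H3K4me3 region spanned 3523, 2820 and 3481 bp in WT, KI and SG MEF, 5288 and 4515 bp in WT and SG MMTV-CAFs, and 3916 and 4390 bp in WT and SG wound-healing fibroblasts, and in KI it did not reach the main TSS. The folds were 10.9 and 14.1 in WT and SG MMTV-CAFs and 9.48 and 12.6 in WT and SG wound-healing fibroblasts, against 3.24 to 5.81 in MEF. H3K27ac summits numbered 5, 7 and 4 in WT, KI and SG MEF, 13 and 9 in WT and SG MMTV-CAFs and 13 and 7 in WT and SG wound-healing fibroblasts, with sums of 172, 54.5, 193, 239, 230.1, 249 and 175. The relative log2 change was 0.04, −0.32, −0.30 and −1.08 in KI and SG MEF, SG MMTV-CAFs and SG wound-healing fibroblasts, so that only the last was called, and with flanks of 50 kb it was −0.35, before subtraction −0.49 and with 50 added to each sum −0.73. With summits of −log10 p of at least 10 only, the MEF KI value was −1.57, which passes the limit, and before subtraction it was also −1.57. The Fgfr1 cluster was a super-enhancer in MMTV-CAF WT (rank 883) and wound-healing WT (rank 194) and in neither of their deleted lists. Prrx1 had 1 summit in MMTV-CAFs (−log10 p 6.45) and 2 in wound-healing fibroblasts (5.39 each), and an intronic site 1726 and 1790 bp downstream of the main TSS was shared by both.
Fgfr1 intron, chr8:26630890-26631090: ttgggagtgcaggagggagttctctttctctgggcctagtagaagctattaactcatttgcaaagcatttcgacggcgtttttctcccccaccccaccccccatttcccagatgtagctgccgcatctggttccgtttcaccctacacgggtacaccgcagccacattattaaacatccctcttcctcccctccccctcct

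Fgfr2, whose splice forms bind Fgf7 and Fgf10 or Fgf2, is encoded on the minus strand (chromosome 7, 137306026 to 137410322, ENSMUSG00000030849.10) once a transcript of over 1 Mb is left out. H3K4me3 covered its main TSS in all 7 lists, over 2846, 2530 and 2579 bp in WT, KI and SG MEF, 3550 and 4819 bp in WT and SG MMTV-CAFs and 1709 and 1994 bp in WT and SG wound-healing fibroblasts. H3K27ac summits numbered 9, 3 and 12 in WT, KI and SG MEF, 5 and 10 in WT and SG MMTV-CAFs and 0 and 2 in WT and SG wound-healing fibroblasts, with sums of 122, 30.6, 274, 88.8, 190.4, 0 and 22.9. Its promoter was thus marked in wound-healing fibroblasts with little or no H3K27ac in the window. After deletion the relative log2 change was −0.22 and 0.66 in KI and SG MEF and 0.81 in SG MMTV-CAFs, and none of these was called. The MEF SG value passed the limit with scores of at least 10 (1.06), at equal list sizes (1.04) and before subtraction (1.14), and the MMTV-CAF value before subtraction (1.06), whereas with the annotated gene body the latter was 0.02. The KI value was above 0 with 50 kb flanks (0.12), at equal sizes (0.24) and with the annotated body (0.18), and −1.83 before subtraction. An intronic site 77823 bp downstream of the main TSS carried H3K27ac in 6 lists, all but wound-healing WT. Prrx1 had 1 summit in MEF (−log10 p 11.3) and 1 in MMTV-CAFs (12.9), at −1167 and −1229 bp from the main TSS and outside the H3K4me3 region. It was the strongest Prrx1 summit of the 9 genes in MEF, and the stretch held 4 overlapping copies of TAATTA.
Fgfr2 upstream, chr7:137410888-137411088: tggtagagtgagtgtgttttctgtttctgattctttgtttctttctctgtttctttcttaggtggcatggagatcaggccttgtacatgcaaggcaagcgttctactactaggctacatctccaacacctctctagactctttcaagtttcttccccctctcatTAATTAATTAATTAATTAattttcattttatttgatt

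Fgfr3, a receptor known for its role in cartilage growth, lies on the plus strand of chromosome 5 from 34064373 to 34079716 (ENSMUSG00000054252.9), beside Letm1. H3K4me3 at its TSS spanned 1231 and 1785 bp in MEF WT and SG, 2160 and 2125 bp in WT and SG MMTV-CAFs and 2408 and 2173 bp in WT and SG wound-healing fibroblasts. In KI a region of 522 bp with a fold of 1.93 began 26 bp downstream of the TSS. H3K27ac was listed at 0 in MEF WT, MEF KI and wound-healing WT, and the other lists held 1 or 2 summits with sums of 14.0 to 22.7, so that no call at Fgfr3 rests on more than 2 summits. No Prrx1 summit lay in its window in any type.

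Joined within 500 bp, the H3K27ac summits of the 9 windows made 200 sites. Only 4 were present in all 7 lists, at Fgf2, Fgf7 and Met, and 104 were present in 1 list. Sites found only in MMTV-CAF lists numbered 104, against 18 only in MEF lists and 6 only in wound-healing lists. These were 52%, 9% and 3% of the 200 sites, whereas of all 100984 sites of the genome 28.7%, 12.9% and 8.57% were found only in these types, 10.6% against 2% were in all 7 lists and 42.1% against 52% in 1 list. Of the 104 MMTV-CAF sites, 31 lay at Met, 25 at Fgf7, 19 at Hgf and 17 at Fgf2. Of the WT summits at the 9 genes, 32.8% (20 of 61, Wilson 95% interval 22.3 to 45.3) were matched within 500 bp in KI MEF, 60.7% (37 of 61, 48.1 to 71.9) in SG MEF, 52.2% (60 of 115, 43.1 to 61.1) in SG MMTV-CAFs and 69.8% (30 of 43, 54.9 to 81.4) in SG wound-healing fibroblasts. Over all WT summits of the lists the shares were 44.3%, 68.2%, 63.9% and 67.7%. Of the 115 WT summits in MMTV-CAFs, 45 lay at Met. Without Met, which was left out after seeing the data, the MMTV-CAF share was 61.4% (43 of 70, 49.7 to 72.0). Intervals cover counting error over summits only. Summits of a window are neighbours in 1 pair of lists and not replicates, so the intervals test no difference from the shares of all summits. Super-enhancer clusters overlapped 2, 1 and 0 of the 9 windows in WT, KI and SG MEF, 4 and 3 in WT and SG MMTV-CAFs and 1 and 2 in WT and SG wound-healing fibroblasts. Of all protein-coding genes, 10.4%, 4.05%, 11.4%, 10.8%, 10.4%, 7.38% and 11.8% had one in their windows in the same order.

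Correlations among the genes lay on both sides of 0. Over the 7 lists, each gene was compared with the other protein-coding genes by the Pearson correlation of log2(sum + 5) less the list median, which is a description over 7 points that share the strength of each list. Among the 9 genes the highest values were 0.80 for Fgf2 with Met and 0.79 for Fgf7 with Hgf, and the lowest was −0.91 for Fgfr1 with Fgfr2. Of up to 13686 other genes, the most alike were Cacnb3 for Fgf2 (0.99), Dek for Fgf7 (0.99), Trafd1 for Fgf10 (0.98), Mre11a for Fgf18 (0.95), Wdr93 for Hgf (0.97), 2310036O22Rik for Fgfr1 (0.94), Socs2 for Fgfr2 (0.97), Lrrc43 for Fgfr3 (0.99) and Smarcd1 for Met (0.98). For each gene 17 to 100 others exceeded 0.9.

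The rest of both pathways was taken as a list of 65 genes, with the other FGF ligands and Mst1, co-receptors, proteins that release or activate the ligands, adaptors, and feedback regulators and targets. H3K4me3 at a TSS was found in the 7 lists at 2 to 7 of 19 ligands, 8 to 12 of 15 receptors and co-receptors, 3 to 6 of 9 release and activation genes, 9 or 10 of 10 adaptors and 11 or 12 of 12 feedback regulators and targets. Of all protein-coding genes, 41.4% to 55.2% had such a region. The relative H3K27ac change was called higher and lower at 5 and 14 of 46 measured genes in KI MEF, 8 and 4 of 49 in SG MEF, 7 and 6 of 49 in SG MMTV-CAFs and 5 and 4 of 46 in SG wound-healing fibroblasts, with medians of −0.28, −0.02, 0.00 and −0.02. These counts are to be read against the shares of all genes called higher and lower, 11.2% and 14%, 6.58% and 6.36%, 11% and 6.46%, and 10.1% and 4.55%. In KI, 5 of 12 feedback and target genes, 4 of 10 adaptors, 5 of 13 measured receptors and 0 of 6 ligands and 0 of 5 release and activation genes were called lower, against 14% of all genes. In each of the other 3 comparisons 0 to 2 genes of any role were called lower. The KI list had the lowest scores, and no alternative setting was run for the pathway list.

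The largest called changes differed between comparisons. In MEF KI, the adaptor Gab2 and the adhesion receptor Flrt2, which binds FGF receptors, had sums of 139 and 137 in WT and were listed at 0, and Spint2, an inhibitor of HGF activation, went from 0 to 14.5. In MEF SG, the glypican Gpc3 went from 135 to 34.5 (−2.31), the decoy receptor Fgfrl1 from 5.96 to 48.5 (1.81) and the endocrine ligand Fgf21 from 0 to 33.7. In MMTV-CAF SG, the glypican Gpc6 went from 81.7 to 7.13 (−3.09), Fgf1 from 142 to 19.8 (−2.82) and Mst1r, a relative of Met, from 0 to 36.8. In wound-healing SG, Gab2 went from 15.3 to 75.9, the syndecan Sdc4 from 169.6 to 94.6, and Fgfbp1, which releases stored FGFs, from 6.82 to 0. Gab2 was thus called lower in MEF KI and higher in wound-healing SG. A Prrx1 summit lay in the window of 2 of the 65 genes in MEF (3.08%), 18 in MMTV-CAFs (27.7%) and 12 in wound-healing fibroblasts (18.5%), shares to be read against the 7.02%, 22.1% and 16.7% of all genes. Frs2, the adaptor that docks to FGF receptors, had summits in all 3 types, with 1, 1 and 2.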

How the data were processed

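ChIP-seq of 24 mouse fibroblast samples was described by the labels, and the peak lists of 17 were analysed, 1 per group. The 7 inputs and all reads were not used here. Per the study's methods and the submitters' processing notes, the authors used Trimmomatic for trimming, Bowtie for alignment (build mm9), Picard for duplicates and MACS2, with input as control, for peaks. The Prrx1 ChIP was made in duplicate, and whether its lists pool them was not given in the sources used here. For H3K27ac and Prrx1, the authors deposited single-base summits, each scored by its −log10 p-value. For H3K4me3, the authors deposited broad regions whose enrichment is a fold (ratio) over input, beside −log10 values of p and q. Read depth is unknown from these files, so that list size and scores are the only view of it.

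Groups came from the sample titles. Genes were those of GENCODE vM1 on the same build, and 0 intervals lay beyond a chromosome end. Transcripts over 1 Mb and over 10 times the median of their gene were left out (4 genes, among them Fgfr2, whose body spanned 3009069 bp with it). The widest region over any TSS was taken for H3K4me3, and the region over the main transcript where stated. Neighbouring summits were stitched at the default gap of the ROSE tool, and clusters past the tangent point of the ranked sums were called super-enhancers, without the reads that tool uses. Summed −log10 p depends on depth and background as well as on enrichment. The calculations were checked on simulated data. Python 3.11.15, numpy 2.4.6, scipy 1.17.1 and matplotlib 3.10.9 were used.

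The 9 genes, the pathway list and the markers were chosen with earlier results of these data known. Of the pathway, the 3 called genes with the largest relative change in each comparison and those with Prrx1 summits in all 3 types were named, and the most alike gene for each of the 9 with a summit in at least 4 lists. Yap1, Gm20388 and Creb3l2 were named after their values were seen. Alternatives were other flanks, score minimums, equal list sizes, scalings, pseudocounts, distances and stitching. The annotated Fgfr2 body, the main TSS alone and leaving out Met were added after seeing the data.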

Additional observations from a re-analysis of the deposited data

Results flagged for a closer look

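The H3K27ac sum at Met went in different directions after Prrx1 deletion in different fibroblasts. In MEF the relative log2 change was −1.80 (KI) and −1.52 (SG), in MMTV-CAFs it was −1.69, and wound-healing fibroblasts had 0.79, where 18 summits were listed against 10 in WT. With 1 list in each group the difference between types was not tested. The wound-healing value did not pass the call limit of 1, and it passed it at 1.25 when only summits of −log10 p of at least 10 were kept and at 1.38 before the median was subtracted.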

How the results depend on the processing

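No paired analysis was possible because every group has 1 list, and for the same reason no replicate could be left out. Met was called lower in MEF KI, MEF SG and MMTV-CAF SG, and Hgf higher in MMTV-CAF SG, under every alternative run, and no called value of a gene listed in both lists changed sign. Of 156 recomputed summary values 113 stayed within 1.5 times the main count or within its interval.

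The 491 H3K27ac summits over all lists became 292 with lists of equal size and 1010 with the annotated body of Fgfr2. Numbers of genes called higher and lower are given in turn. MEF KI had 1 and 1, with 2 lower at scores of at least 10 and 5 lower without the median. MEF SG had 1 and 2, with 2 higher at scores of at least 10 or equal list sizes, 3 without the median and 0 at a pseudocount of 50. MMTV-CAF SG had 1 and 1, with 2 lower at scores of at least 10, 2 higher at equal sizes and 3 higher without the median. Wound-healing SG had 3 and 1. Its higher count was 1 without flanks, 0 at equal sizes or a pseudocount of 50 and 5 without the median, and its lower count was 0 with 50 kb flanks, without the median or at a pseudocount of 50, 2 at scores of at least 10 and 3 at equal sizes.

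MMTV-CAF over MEF had 5 and 0, with 2 higher at 50 kb flanks or equal sizes, 1 at a pseudocount of 50, and 1 lower at equal sizes. Wound-healing over MEF had 2 and 4, with 0 higher at 50 kb flanks or a pseudocount of 50 and 1 at scores of at least 10 or without the median. MMTV-CAF over wound-healing had 5 and 0, with 2 higher at a pseudocount of 50, and 1 lower at scores of at least 10 or with sums divided by the list total and 2 at equal sizes. Prrx1 summits (7, 26 and 9) became 44 and 17 in MMTV-CAFs and wound-healing fibroblasts at 50 kb flanks, 2, 10 and 0 at scores of at least 10, and 10 in MMTV-CAFs without Met. The share of kept WT summits was 39.1% in MMTV-CAF SG at 250 bp and 61.4% without Met, and 49.2%, 73.8% and 69.6% in MEF KI, MEF SG and MMTV-CAF SG at 1 kb. The cause of these shifts was not tested. Few summits stand behind calls from a list at 0, and sequencing depth could not be weighed.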
